A study of Mus musculus with 6 samples.

Results

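Small nucleolar RNAs (snoRNAs) were followed in sorted Kit+ CD11b+ bone marrow cells of MYB knockdown and wild type mice. The genes taken were those whose symbol begins with Snord (box C/D class) or Snora (H/ACA class) and that had a probe set of exactly 1 symbol. Where a gene had several such probe sets, the one with the highest mean over all 6 arrays was kept, and its mean had to lie above the 30th percentile of all genes. Of 51 snoRNA genes with such a probe set, 49 passed, 29 of the box C/D class and 20 of the H/ACA class, among all 13956 genes that passed. The members were thus chosen by their mean level over both groups, not by the difference between them. RNA came from 3 MYB knockdown mice and 3 wild type mice, with 1 array per mouse. All were C57BL6 males aged 4 weeks, and the cells were sorted as Kit+, CD11b+ and lineage-low, the fraction the labels call K11bL. The labels do not say how Myb was lowered, and the title of the series calls the cells myeloproliferative.

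SnoRNAs are short nucleolar RNAs that guide enzymes to ribosomal RNA. Box C/D snoRNAs direct the 2'-O-methylation of ribose by fibrillarin, and H/ACA snoRNAs direct the conversion of uridine to pseudouridine by dyskerin, while a few of each class are needed for cleavage of the ribosomal RNA precursor. In mammals most of them lie in introns of genes for ribosomal proteins and other translation factors, or of non-coding host genes. They are released by debranching and trimming of the spliced intron, so that a snoRNA and the messenger RNA of its host start as the same transcript but are processed and degraded apart. MYB is a transcription factor of proliferating haematopoietic progenitors.

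The array medians of the deposited log2 values lay between 5.87 and 5.99. Knockdown mouse 3 stood apart from the rest, with correlations over all probe sets of 0.977 and 0.984 with knockdown mice 1 and 2, which correlated at 0.994 with each other, while the wild type arrays correlated at 0.993 to 0.995. The main counts of calls and the class medians below are therefore given with and without that mouse. Single members are given without it only where stated. Myb had log2 values of 11.26, 11.08 and 11.14 in the MYB knockdown mice, against 11.47, 11.46 and 11.46 in the wild type mice, a difference of -0.30 ± 0.06 (SE; adjusted p = 0.0196), so that it was lower in each knockdown mouse. That call was lost without any 1 mouse of the wild type or without knockdown mouse 2 (adjusted p between 0.0776 and 0.0967), and after median centring or without the trend of eBayes (adjusted p = 0.074 and 0.0662). The gate genes Kit and Itgam (CD11b) were present on every array, with a mean log2 level of the pair between 9.65 and 10.03 in the MYB knockdown and between 10.09 and 10.22 in the wild type. Itgam had 9.85, 9.43 and 9.07 in MYB knockdown mice 1 to 3 and 9.81, 9.90 and 9.82 in wild type mice 1 to 3 (difference -0.39, adjusted p = 0.202). Kit was lower in every knockdown mouse than in every wild type mouse (difference -0.27, adjusted p = 0.06). Of 10 granulocyte markers 9 fell, with a mean log2 level between 9.78 and 10.39 in the MYB knockdown and between 11.69 and 11.86 in the wild type. All 5 measured megakaryocyte markers rose, with mean levels between 9.03 and 9.13 in the MYB knockdown and between 7.28 and 7.41 in the wild type. All 3 eosinophil markers fell, with mean levels between 6.05 and 7.14 in the MYB knockdown and between 9.52 and 9.78 in the wild type, and 3 of 5 measured B lymphoid markers fell, with mean levels between 6.55 and 6.91 in the MYB knockdown and between 7.37 and 7.91 in the wild type. Of 3 measured T and NK markers Klrd1 rose and Nkg7 fell, with mean levels between 7.70 and 7.83 in the MYB knockdown and between 7.65 and 7.89 in the wild type. Of the 3 measured erythroid markers, which had the mean log2 levels 8.72, 8.06 and 9.46 in MYB knockdown mice 1 to 3 and between 8.26 and 8.78 in the wild type mice, 0 passed the test by limma and 0 had an unadjusted p under 0.05. The part of these shifts in the snoRNA values was not tested, and in sorted bulk RNA fewer cells of a type and less RNA per cell cannot be told apart.

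Few snoRNAs were called over all 6 arrays, a share below that of all genes, and the calls were higher. A member that was not called is not thereby shown to be unchanged, since the knockdown mice spread widely, as given below. In the fit over all genes (limma, Benjamini-Hochberg adjustment over these 13956 genes, threshold 0.05) 2 of 49 members rose and 0 fell, a share of 4.08% called. Of all genes 11.6% were called, 6.12% higher and 5.48% lower. After median centring of the arrays 3 members rose and 0 fell, where 10.3% of all genes were called higher and 4.25% lower. Without the filter on dim genes 0 members were called, where 3.8% of all genes were called higher and 3.59% lower. At an unadjusted p under 0.05, 6 members were higher and 2 lower, where 15% of all genes were higher and 10.6% lower at that p. By sign alone 35 of 49 members were higher in the knockdown and 14 lower, where 53.6% of all genes were higher. On the log2 scale the differences (knockdown minus wild type) ranged from -0.48 to 0.75 with a median of 0.14, where the median of all genes was 0.02. The groups did not overlap for 5 members that were higher and 2 that were lower, which is 10.2% and 4.08% of the members, where 19.9% of all genes were higher and 14.4% lower with no overlap, 34.3% in all.

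Most members of both classes were higher by sign, and the difference between the classes was not tested. Box C/D members had a median difference of 0.18, with 21 of 29 higher, and H/ACA members a median of 0.12, with 14 of 20 higher. These medians rest on single mice: without knockdown mouse 1 that of the box C/D class was -0.01, without knockdown mouse 2 that of the H/ACA class was -0.03, and without knockdown mouse 3 they were 0.35, with Snord58b, which passes the filter on those 5 arrays, and 0.30. Both calls were of the box C/D class. After median centring of the arrays the median difference was 0.25 for the box C/D class and 0.19 for the H/ACA class. Per array, the median log2 value of the 29 box C/D probe sets was 8.11, 8.09 and 7.14 in MYB knockdown mice 1 to 3 and 7.73, 7.65 and 7.64 in wild type mice 1 to 3. That of the 20 H/ACA probe sets was 8.10, 7.92 and 7.40 in MYB knockdown mice 1 to 3 and 7.64, 7.68 and 7.61 in wild type mice 1 to 3. In both classes knockdown mice 1 and 2 lay above every wild type mouse and knockdown mouse 3 below them all.

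**Figure D1:**
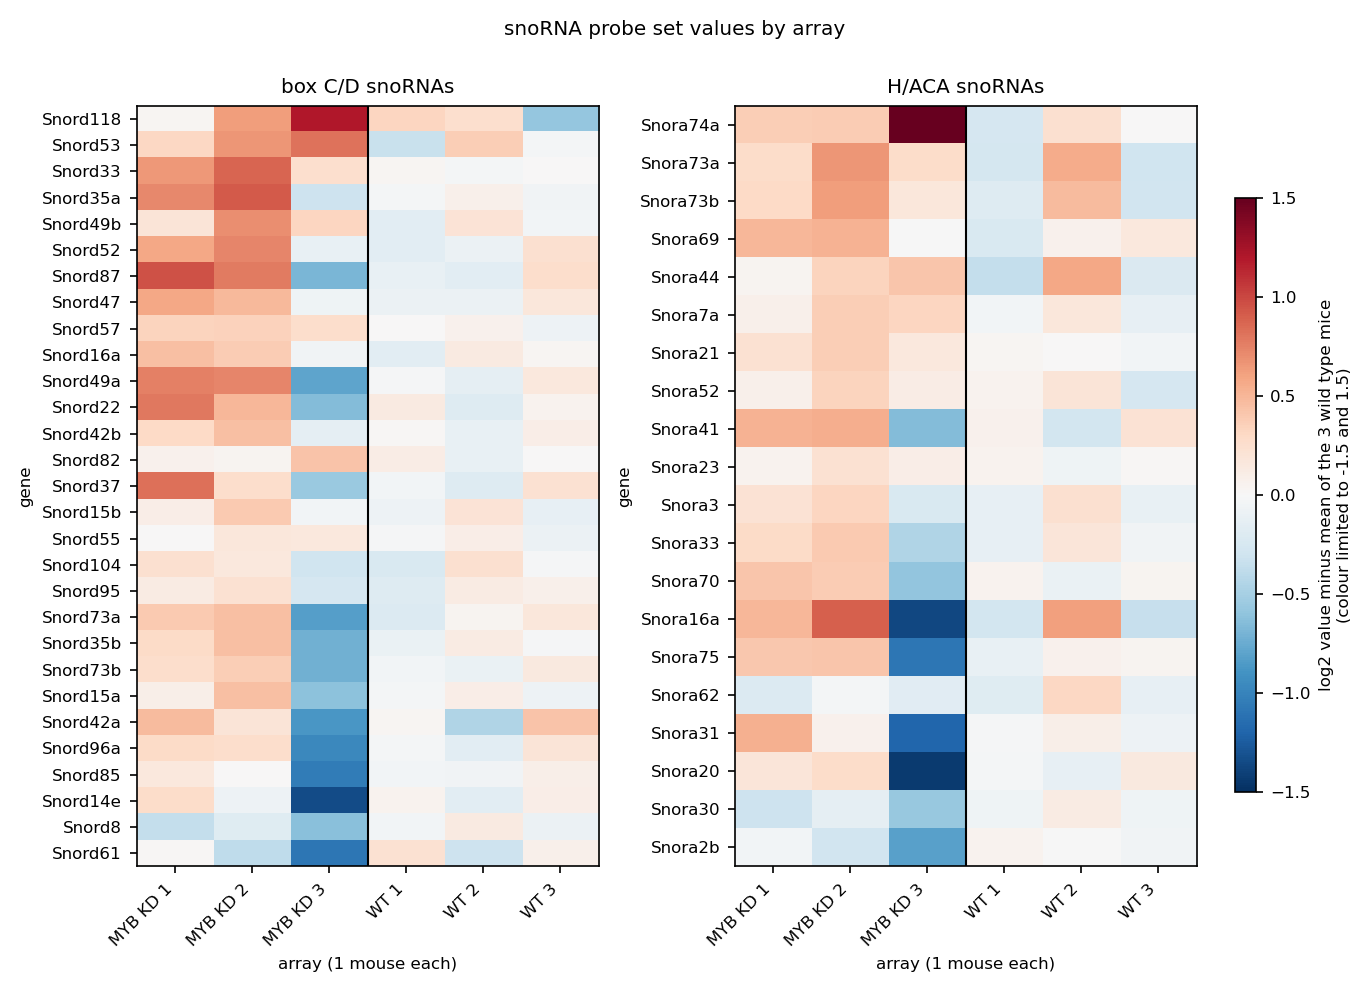
Log2 value of each of the 49 snoRNA probe sets (rows) minus the mean of the 3 wild type mice, by array (columns), for the box C/D class on the left and the H/ACA class on the right, ordered from the highest to the lowest difference between the groups. Red is higher and blue lower than the wild type mean. The columns of knockdown mice 1 and 2 are mostly red, and that of knockdown mouse 3 holds most of the deep blue cells, with deep red for Snora74a and Snord118.

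Within the knockdown the mice thus went different ways. Against the mean of the wild type mice, 45 of 49 members were higher in knockdown mouse 1 (median 0.28), 43 in knockdown mouse 2 (median 0.38) and 15 in knockdown mouse 3 (median -0.29). The medians over all genes were 0.01, 0.03 and 0.05 in the same mice. Both knockdown mice 1 and 2 lay above every wild type mouse for 25 members (51.0%), where 32.3% of all genes did so. Knockdown mouse 3 lay below every wild type mouse for 28 members (57.1%), where 36.5% of all genes did so, and in all 28 it was the lowest of the 6 arrays, as it was for 29.3% of all genes. The SD among the knockdown mice had a median over the members of 0.39, against 0.16 among the wild type mice. Over all genes these medians were 0.17 and 0.08. Box C/D members spread more widely in the knockdown (median SD 0.55) than H/ACA members did (0.30), while in the wild type their medians were 0.15 and 0.18, which was not tested either.

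**Figure D2:**
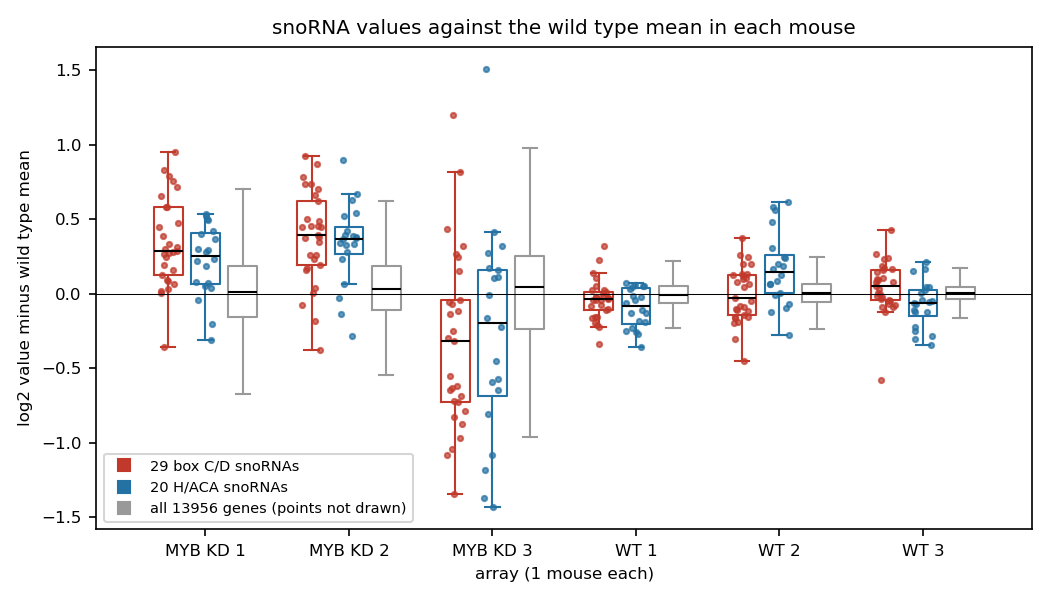
Log2 value minus the wild type mean in each mouse, for the box C/D members (red), the H/ACA members (blue) and all genes tested (grey). Points are snoRNA genes (those of all genes are not drawn), boxes span the quartiles with the median as a line, and whiskers reach at most 1.5 times the box. The box C/D medians are 0.29, 0.40 and -0.32 and the H/ACA medians 0.26, 0.37 and -0.20 in MYB knockdown mice 1 to 3.

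Of the box C/D class, Snord33 and Snord57 rose. Snord33 lies in the ribosomal protein gene Rpl13a, and its human counterpart guides methylation of 18S ribosomal RNA. Its log2 values were 7.28, 7.49 and 6.87 in the MYB knockdown mice, against 6.64, 6.59 and 6.63 in the wild type mice. All knockdown values were above all wild type values, and the difference was 0.59 ± 0.16 (SE; adjusted p = 0.0438), or 1.51-fold. Snord57 lies in Nop56, a gene for a core protein of the box C/D particle itself, and in humans also guides methylation of 18S ribosomal RNA. It had 10.08, 10.09 and 10.01 in the MYB knockdown mice, against 9.75, 9.81 and 9.67 in the wild type mice. The groups did not overlap, and the 3 knockdown mice were within 0.1 of each other, unlike most members. The difference was 0.31 ± 0.08 (SE; adjusted p = 0.0397), or 1.24-fold. Neither call was kept without any 1 wild type mouse, without knockdown mouse 1 or without knockdown mouse 2, where the adjusted p lay between 0.0846 and 0.198, and neither without the filter on dim genes (adjusted p = 0.0525 and adjusted p = 0.0529). Snord57 was also lost without the trend of eBayes (adjusted p = 0.055).

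Snord53, which lies in Wdr43, a gene for a protein of the small subunit processome, had 8.40, 8.75 and 8.90 in MYB knockdown mice 1 to 3 and 7.75, 8.46 and 8.05 in wild type mice 1 to 3. Knockdown mouse 3 was its highest array, and 1 wild type value exceeded the lowest knockdown value, with a difference of 0.60 ± 0.20 (SE; adjusted p = 0.0937). It passed the test after median centring (adjusted p = 0.0473) and with array weights (adjusted p = 0.00927). Snord49b, in the non-coding gene 2410006H16Rik, had 9.47, 9.98 and 9.60 in MYB knockdown mice 1 to 3 and 9.12, 9.48 and 9.23 in wild type mice 1 to 3, a difference of 0.40 ± 0.15 (SE; adjusted p = 0.132). Its knockdown values overlapped the wild type by 1 mouse. Snord52, in the non-coding gene 1110038B12Rik, had 7.01, 7.16 and 6.31 in MYB knockdown mice 1 to 3 and 6.27, 6.35 and 6.67 in wild type mice 1 to 3, with knockdown mouse 3 inside the wild type range and a difference of 0.40 ± 0.22 (SE; adjusted p = 0.304).

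Among the snoRNAs known for cleavage of the precursor, Snord118 is U8, which is needed for 5.8S and 28S ribosomal RNA and is transcribed from a gene of its own; it was the 1 member with no enclosing gene in the annotation. Its log2 values were 5.33, 5.92 and 6.50 in the MYB knockdown mice, against 5.62, 5.56 and 4.72 in the wild type mice. The knockdown mice differed among themselves by more than 1 on the log2 scale, the groups overlapped, and the difference of 0.62 ± 0.32 (SE; adjusted p = 0.279) did not pass. Its 2 probe sets hold the same values, so they are 1 measurement. Snord14e, a copy of U14, which acts in 18S processing, lies in the heat shock gene Hspa8 and had 9.998, 9.65 and 8.38 in the MYB knockdown mice, against 9.78, 9.57 and 9.83 in the wild type mice. Knockdown mouse 3 was 1.44 below the mean of the other 2, and the difference was -0.38 ± 0.35 (SE; adjusted p = 0.578). Snord22, or U22, which is needed for 18S processing in Xenopus, lies in Snhg1 and had 8.38, 8.09 and 6.94 in MYB knockdown mice 1 to 3 and 7.73, 7.40 and 7.64 in wild type mice 1 to 3. Knockdown mice 1 and 2 were above every wild type mouse and knockdown mouse 3 below them, for a difference of 0.21 ± 0.32 (SE; adjusted p = 0.758).

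The lowest differences of the class belonged to Snord61, Snord8 and Snord14e. Snord61, in the RNA-binding protein gene Rbmx, had 5.99, 5.59 and 4.89 in MYB knockdown mice 1 to 3 and 6.20, 5.67 and 6.05 in wild type mice 1 to 3, a difference of -0.48 ± 0.26 (SE; adjusted p = 0.305). Its groups overlapped. Snord8, enclosed by the chromatin remodeller gene Chd8 and by Gm26590, had 7.10, 7.27 and 6.83 in MYB knockdown mice 1 to 3 and 7.42, 7.59 and 7.37 in wild type mice 1 to 3. It was the 1 box C/D member with every knockdown value below every wild type value, at -0.39 ± 0.14 (SE; adjusted p = 0.108). Snord8 was named after its values were seen.

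In the H/ACA class 0 members were called by limma over all arrays, and 3 had an unadjusted p under 0.05. Snora74a, or U19, which in humans guides pseudouridylation of 28S ribosomal RNA and lies in Snhg4, had 7.51, 7.52 and 8.65 in the MYB knockdown mice, against 6.89, 7.38 and 7.14 in the wild type mice. Every knockdown value was above every wild type value, knockdown mouse 3 by far the most, and the difference was 0.75 ± 0.29 (SE; adjusted p = 0.15). The pair Snora73a and Snora73b, the copies of U17 that act in 18S processing, both lie in Snhg3. Snora73a had 9.02, 9.41 and 9.01 in MYB knockdown mice 1 to 3 and 8.48, 9.30 and 8.44 in wild type mice 1 to 3, and Snora73b had 9.20, 9.53 and 9.08 in MYB knockdown mice 1 to 3 and 8.71, 9.38 and 8.62 in wild type mice 1 to 3. In both, wild type mouse 2 lay within the range of the knockdown mice while wild type mice 1 and 3 were lower than all of them. Their differences were 0.41 ± 0.23 (SE; adjusted p = 0.325) and 0.37 ± 0.21 (SE; adjusted p = 0.327). The copies are closely related, and whether each probe set also binds the other copy was not tested.

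Snora69, in the ribosomal protein gene Rpl39, had 8.55, 8.57 and 8.04 in MYB knockdown mice 1 to 3 and 7.82, 8.12 and 8.21 in wild type mice 1 to 3, with knockdown mice 1 and 2 above every wild type mouse and a difference of 0.34 ± 0.17 (SE; adjusted p = 0.267). Snora30, in the chromatin remodeller gene Srcap, and Snora2b, in Kansl2, were at the low end. Snora30 had 6.11, 6.29 and 5.86 in the MYB knockdown mice, against 6.36, 6.55 and 6.36 in the wild type mice; its groups did not overlap, and the difference was -0.34 ± 0.13 (SE; adjusted p = 0.141). Both of its probe sets hold the same values. Snora2b had 5.28, 5.04 and 4.51 in the MYB knockdown mice, against 5.38, 5.32 and 5.27 in the wild type mice, a difference of -0.38 ± 0.18 (SE; adjusted p = 0.224). It was also the dimmest member that passed the filter, close to the threshold of 5.11.

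Snora21, in Rpl23, and Snora23, in the importin gene Ipo7, were the other H/ACA members with every knockdown value above every wild type value in the probe set kept. Snora21 had 7.35, 7.49 and 7.28 in the MYB knockdown mice, against 7.16, 7.13 and 7.08 in the wild type mice, a difference of 0.25 ± 0.10 (SE; adjusted p = 0.157). In its dimmer probe set the groups overlapped. Knockdown mouse 3 had 6.88 there, below the wild type mice at 7.10, 6.93 and 7.04. Snora23 had 10.20, 10.39 and 10.26 in the MYB knockdown mice, against 10.20, 10.09 and 10.18 in the wild type mice; its lowest knockdown value and its highest wild type value were nearly equal, and the difference was 0.13 ± 0.08 (SE; adjusted p = 0.389). The rest of the H/ACA class in ribosomal protein genes is given with the difference and SE of each. Snora7a in Rpl32 differed by 0.25 ± 0.12, Snora52 in Rplp2 by 0.18 ± 0.12 and Snora3 in Rpl27a by 0.11 ± 0.17. Snora33 in Rps12 differed by 0.08 ± 0.22, Snora70 in Rpl10 by 0.07 ± 0.25 and Snora62 in Rpsa by -0.13 ± 0.14. In the box C/D class Snord16a in Rpl4 differed by 0.26 ± 0.15, Snord37 in the elongation factor gene Eef2 by 0.18 ± 0.30 and Snord104 in Gm36220 by 0.04 ± 0.16. None of these passed over all arrays. Without knockdown mouse 3 Snora33, Snora70, Snord16a and Snord37 passed (adjusted p = 0.0384, 0.00526, 0.00762 and 0.0494). The pairs Snord15a and Snord15b of Rps3, Snord42a and Snord42b of Rpl23a, and Snord95 and Snord96a of Rack1 had differences between -0.14 (Snord96a) and 0.20 (Snord42b). None of the pairs passed over all arrays, and of their members only Snord42b did without knockdown mouse 3 (adjusted p = 0.0113).

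Without knockdown mouse 3 the picture of the calls changed. In the fit on the other 5 arrays 20 of the 49 members rose (40.8%) and 0 fell, where 17.1% of all genes were called higher and 27.2% were called in either direction. Of the box C/D members 14 of 29 rose and of the H/ACA members 6 of 20. The median difference was 0.34 for the box C/D class and 0.30 for the H/ACA class, where that of all genes was 0.01, and 44 of 49 members were higher. The 2 mice left in the knockdown are the ones that lay together on the arrays, so this count describes them and not the group of 3.

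The largest of these differences were in box C/D snoRNAs. Snord87, enclosed by Snhg6 and by Mcmdc2, had 6.93, 6.76 and 5.29 in MYB knockdown mice 1 to 3 and 5.87, 5.82 and 6.24 in wild type mice 1 to 3. Without knockdown mouse 3 its difference was 0.87 (adjusted p = 0.00183), while over all arrays it was 0.35 ± 0.38 (SE; adjusted p = 0.652). Snord35a, which lies beside Snord33 in Rpl13a, had 8.84, 9.04 and 7.80 in MYB knockdown mice 1 to 3 and 8.09, 8.20 and 8.07 in wild type mice 1 to 3, and its difference was 0.82 (adjusted p = 0.00019) without that mouse and 0.44 ± 0.28 (SE; adjusted p = 0.391) with it. Its relative Snord35b had 8.15, 8.32 and 7.14 in MYB knockdown mice 1 to 3 and 7.77, 7.99 and 7.85 in wild type mice 1 to 3, and its difference was 0.37 (adjusted p = 0.0173) without the mouse and 0.002 ± 0.27 (SE; adjusted p = 0.998) with it. Snord35a and Snord33 belong to the Rpl13a snoRNAs known from the response of cells to lipid and oxidative stress. Snord33 and Snord57 were again among the calls, at 0.77 (adjusted p = 0.000476) and 0.34 (adjusted p = 0.00366). Snord47 differed by 0.54 (adjusted p = 0.00323) without the mouse and by 0.33 (adjusted p = 0.289) with it. Of the H/ACA class Snora70, in Rpl10, differed by 0.40 (adjusted p = 0.00526), Snora75, in Ncl, by 0.41 (adjusted p = 0.00488) and Snora41, in Eef1b2, by 0.53 (adjusted p = 0.0208). Over all arrays Snora70, Snora75 and Snora41 differed by 0.07, -0.09 and 0.14 (adjusted p = 0.91, 0.926 and 0.844). With array weights, which give an array that departs from its group less weight and whose estimation stopped before it had converged, 26 members rose and 0 fell on all 6 arrays, where 16.8% of all genes were called higher.

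The size of the step down in knockdown mouse 3 varied widely. Its value minus the mean of knockdown mice 1 and 2 ranged from -2.07 to 1.14, with a median of -0.78 over the box C/D members and -0.42 over the H/ACA members, where the median of all genes was 0.01. It was more than 1 below that mean for 17 members. Snora16a, in Snhg12, had the largest step at -2.07, followed by Snora20, in the chaperonin gene Tcp1, at -1.67 and Snord87 at -1.56. For 5 members knockdown mouse 3 was the highest knockdown mouse, and these were Snora44, Snora74a, Snord118, Snord53 and Snord82. Annotated lengths of the members ran from 45 to 205 nucleotides. The 26 members under 100 nucleotides had a median step of -0.84 and the 23 longer ones one of -0.35, and knockdown mouse 3 was the lowest knockdown mouse in 22 and 16 of them, as it was for 42.9% of all genes. Over the 49 members the step correlated with length at a Pearson's r of 0.35 and a Spearman's rho of 0.31, a description across genes of the same arrays. With the mean level over all arrays its rho was 0.28. The median length was 71 nucleotides in the box C/D class and 125 in the H/ACA class. Length and class thus largely go together, and they were not told apart here.

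The annotation placed 45 of the 49 members inside exactly 1 gene, 3 inside 2 genes and 1 in none. It gives no strand for the snoRNAs, so the enclosing gene is called host by position alone. Of the members 19 lay in ribosomal protein genes (symbols beginning with Rpl or Rps) and 10 in non-coding genes. Their median differences were 0.11 and 0.32. Promoters of 29 of the 36 hosts are in the RefSeq table of GRCm38.p6. Those of the hosts of both called snoRNAs and of 2 hosts whose snoRNAs parted in knockdown mouse 3 are shown, since the snoRNAs described here lie within the bounds of these genes. Each runs from 250 bases before to 50 bases after the annotated start, 5′ to 3′, and capitals mark the longest run of C and T within 20 bases of the start, or the first of equal runs. Rpl13a lies at chr7:45128696-45128995 (- strand), Nop56 at chr2:130274162-130274461 (+ strand), Ncl at chr1:86359406-86359705 (- strand) and Snhg12 at chr4:132308428-132308727 (+ strand).
Rpl13a: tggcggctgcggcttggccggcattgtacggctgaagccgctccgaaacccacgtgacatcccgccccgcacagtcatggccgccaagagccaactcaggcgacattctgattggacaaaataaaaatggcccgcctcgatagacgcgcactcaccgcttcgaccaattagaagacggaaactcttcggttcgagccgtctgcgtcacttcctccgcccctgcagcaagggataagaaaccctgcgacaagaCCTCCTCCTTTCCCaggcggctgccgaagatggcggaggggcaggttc
Nop56: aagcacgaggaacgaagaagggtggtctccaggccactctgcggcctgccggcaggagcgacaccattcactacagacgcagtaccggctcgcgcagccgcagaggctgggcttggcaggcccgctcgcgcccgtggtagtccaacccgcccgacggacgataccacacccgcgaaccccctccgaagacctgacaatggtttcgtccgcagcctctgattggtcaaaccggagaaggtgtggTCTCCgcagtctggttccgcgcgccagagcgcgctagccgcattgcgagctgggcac
Ncl: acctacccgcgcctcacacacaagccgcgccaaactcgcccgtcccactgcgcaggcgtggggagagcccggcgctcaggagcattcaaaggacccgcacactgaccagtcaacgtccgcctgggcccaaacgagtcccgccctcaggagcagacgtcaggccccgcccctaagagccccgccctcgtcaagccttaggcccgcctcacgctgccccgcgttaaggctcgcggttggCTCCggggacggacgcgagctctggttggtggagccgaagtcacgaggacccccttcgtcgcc
Snhg12: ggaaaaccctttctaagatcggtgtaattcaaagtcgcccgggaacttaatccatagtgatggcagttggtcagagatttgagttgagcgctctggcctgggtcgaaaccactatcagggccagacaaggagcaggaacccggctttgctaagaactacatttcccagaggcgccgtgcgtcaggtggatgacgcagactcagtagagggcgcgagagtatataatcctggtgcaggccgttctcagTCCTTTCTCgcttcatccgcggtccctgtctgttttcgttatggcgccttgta
The run was 14 bases long in Rpl13a, 9 in Snhg12, 5 in Nop56 and 4 in Ncl. A tract of pyrimidines that begins the transcript is the known mark of messenger RNAs under translational control by growth signals, to which many snoRNA hosts belong. The runs searched here could lie before or after the first transcribed base, and need not be such tracts. In Nop56 and Ncl the marked run ends before that base. Ncl also has an unmarked run of the same length, ctct, after it. A run of at least 8 was found in 11 of the 29 host promoters (37.9%) and in 15.9% of all 27025 promoters of the table. The motif TAACNG, a form of the MYB recognition sequence, searched on both strands, was in 4 of the 29 (13.8%) and in 23.2% of all promoters, and in none of the 4 shown.

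For 9 hosts 2 members each were measured, so that snoRNAs within 1 gene could be set side by side. In Ncl, the gene of nucleolin, Snora75 had 8.38, 8.40 and 6.90 in MYB knockdown mice 1 to 3 and 7.87, 8.05 and 8.02 in wild type mice 1 to 3, while Snord82 had 9.32, 9.29 and 9.69 in MYB knockdown mice 1 to 3 and 9.36, 9.15 and 9.26 in wild type mice 1 to 3. In knockdown mouse 3 the first was the lowest of its 6 arrays and the second the highest. In Snhg12, Snora16a had 9.69, 10.09 and 7.82 in MYB knockdown mice 1 to 3 and 8.92, 9.81 and 8.85 in wild type mice 1 to 3, while Snora44 had 7.15, 7.45 and 7.53 in MYB knockdown mice 1 to 3 and 6.75, 7.69 and 6.89 in wild type mice 1 to 3. Here too the arrays diverged: knockdown mouse 3 was the lowest for Snora16a and the highest of the knockdown mice for Snora44, although wild type mouse 2 was high for both. In 2410006H16Rik, Snord49a had 8.51, 8.49 and 6.97 in MYB knockdown mice 1 to 3 and 7.74, 7.62 and 7.92 in wild type mice 1 to 3, with knockdown mouse 3 far below, whereas in Snord49b, given above, that mouse was above every wild type mouse. In Rpl13a the step down in knockdown mouse 3 was -1.14 for Snord35a and -0.52 for Snord33. Snord73a and Snord73b of Rps3a1 moved together instead, with steps of -1.25 and -1.04, and so did Snora73a and Snora73b of Snhg3, with -0.20 and -0.29. In the wild type 4 members had mouse 2 above the other 2 mice by more than 0.5, and these were the pairs of Snhg3 and Snhg12.

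**Figure D3:**
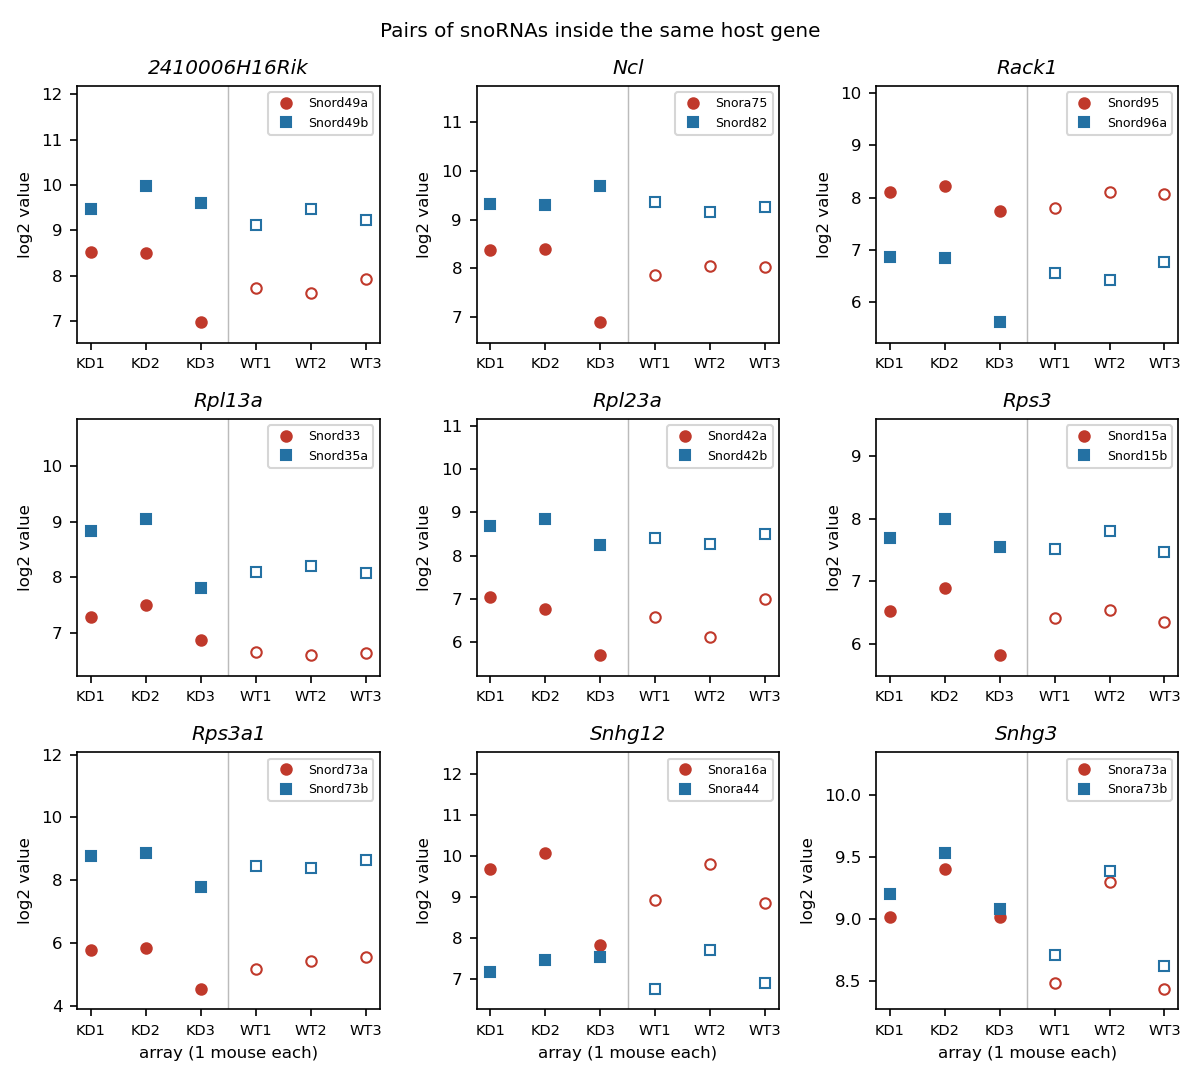
Log2 values per mouse of the 2 measured snoRNAs in each of 9 host genes, with MYB knockdown mice as filled and wild type mice as open symbols. Each panel has its own axis, and heights of different probe sets are not comparable. In Ncl, Snhg12 and 2410006H16Rik 1 snoRNA drops in knockdown mouse 3 while its partner does so by less or not at all.

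The host messenger RNAs were read on the same arrays. For 26 members the host had a probe set of its own above the filter, 22 hosts in all. Of these 22 hosts 1 rose and 0 fell over all arrays, where 6.12% of all genes were called higher and 5.48% lower. Their differences ran from -0.15 to 0.36 with a median of 0.06, where that of all genes was 0.02. The low end was Rplp2, whose probe set was the dimmest of the hosts, with a mean log2 level of 6.34. The host that rose was Wdr43, with 10.44, 10.62 and 10.31 in the MYB knockdown mice, against 10.06, 10.11 and 10.12 in the wild type mice, a difference of 0.36 ± 0.09 (SE; adjusted p = 0.0424); its groups did not overlap. The call was lost when any mouse other than knockdown mouse 3 was left out (adjusted p between 0.0743 and 0.171), and also without the filter on dim genes (adjusted p = 0.0529) and without the trend of eBayes (adjusted p = 0.0633). Ncl had 11.55, 11.51 and 11.40 in the MYB knockdown mice, against 11.29, 11.22 and 11.29 in the wild type mice, a difference of 0.22 ± 0.06 (SE; adjusted p = 0.06), with no overlap either. Nop56 had 11.33, 11.32 and 10.98 in MYB knockdown mice 1 to 3 and 10.98, 11.03 and 11.09 in wild type mice 1 to 3, a difference of 0.18 ± 0.10 (SE; adjusted p = 0.324). Knockdown mouse 3 was inside the wild type range for Nop56. For its snoRNA Snord57 that mouse was the lowest of the knockdown, at 10.01, but above every wild type mouse. Member and host had the same sign in 15 of 26 pairs, and Pearson's r of their differences over the pairs was 0.33, a description across genes that share arrays. Without knockdown mouse 3, 9 of the 22 hosts rose, where 17.1% of all genes were called higher.

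The value of knockdown mouse 3 minus the mean of knockdown mice 1 and 2 had a median of -0.15 over the 22 hosts and of -0.72 over the 26 members. Snora31 was -1.49 from the mean of knockdown mice 1 and 2, where its host Tpt1 was -0.01. Snord14e was at -1.44 and its host Hspa8 at -0.13. Snora20 was at -1.67 and its host Tcp1 at -0.24. The difference between snoRNA and host was not tested.

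**Figure D4:**
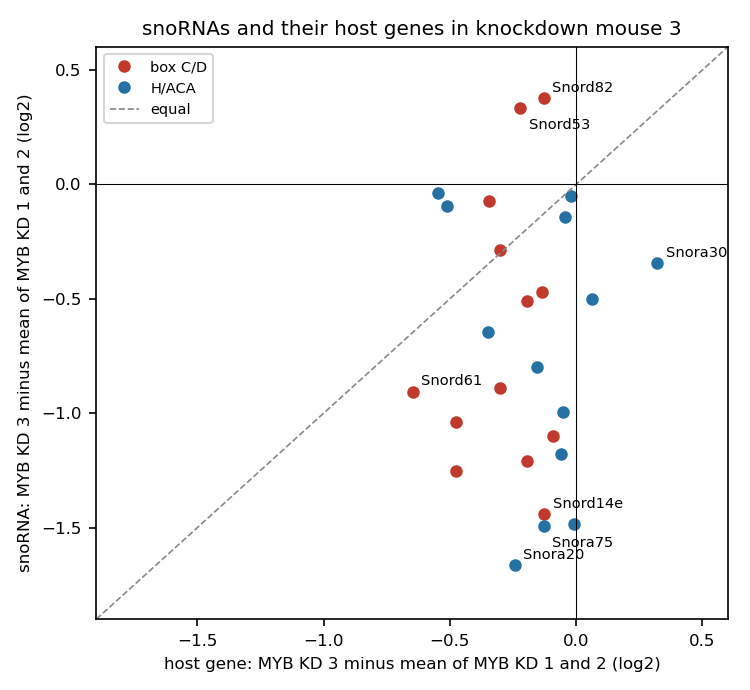
Value of knockdown mouse 3 minus the mean of knockdown mice 1 and 2 (log2), for the host gene (horizontal axis) and for its snoRNA (vertical axis), over 26 pairs. The dashed line marks equal steps. The hosts lie between -0.65 and 0.32, and most snoRNAs lie below the line.

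Genes for the proteins of the snoRNA particles were higher throughout by sign. Of the 5 box C/D core proteins 3 rose, with a median difference of 0.28, and of the 4 H/ACA core proteins 1 rose, with a median of 0.21; 6.12% of all genes were called higher. Rrp9, the protein specific to the U3 particle, had 8.31, 8.51 and 8.68 in the MYB knockdown mice, against 7.64, 7.74 and 7.69 in the wild type mice, a rise by 0.81 ± 0.12 (SE; adjusted p = 0.00361), or 1.75-fold. It was called under every alternative run, with an adjusted p between 2.11e-05 and 0.0295. Fbl, fibrillarin, the methyltransferase, had 10.24, 10.33 and 10.34 in the MYB knockdown mice, against 9.94, 9.90 and 10.02 in the wild type mice, a rise by 0.35 ± 0.08 (SE; adjusted p = 0.0232). Snu13, which binds the kink-turn of the RNA, had 11.72, 11.83 and 11.74 in the MYB knockdown mice, against 11.50, 11.45 and 11.57 in the wild type mice, a rise by 0.25 ± 0.06 (SE; adjusted p = 0.0276). Nop58, a scaffold protein, had 9.99, 10.07 and 9.57 in the MYB knockdown mice, against 9.58, 9.54 and 9.68 in the wild type mice and differed by 0.28 ± 0.13 (SE; adjusted p = 0.239), and Nop56, its partner, is given above.

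Nhp2, which sits in the H/ACA particle, had 9.01, 9.31 and 9.09 in the MYB knockdown mice, against 8.69, 8.62 and 8.76 in the wild type mice, a rise by 0.45 ± 0.11 (SE; adjusted p = 0.0345). Dkc1, dyskerin, the pseudouridine synthase, had 10.12, 10.14 and 9.69 in the MYB knockdown mice, against 9.86, 9.75 and 9.82 in the wild type mice, with knockdown mouse 3 below the wild type mice and a difference of 0.17 ± 0.13 (SE; adjusted p = 0.473). Gar1 differed by 0.23 ± 0.18 (SE; adjusted p = 0.493) and Nop10 by 0.18 ± 0.09 (SE; adjusted p = 0.233), and the groups of both overlapped. Without knockdown mouse 3 all 5 box C/D and 3 of the 4 H/ACA core proteins rose, where 17.1% of all genes were called higher.

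Of 13 genes of particle assembly and transport 2 rose and 0 fell, with a median of 0.25 and all 13 higher by sign. Among all genes 6.12% were called higher and 5.48% lower. Naf1, which assembles H/ACA particles before Gar1 takes its place, had 8.90, 8.90 and 8.99 in the MYB knockdown mice, against 8.51, 8.36 and 8.67 in the wild type mice, a rise by 0.42 ± 0.11 (SE; adjusted p = 0.0421). Nolc1, a chaperone of the particles in the nucleolus and Cajal bodies, had 10.02, 10.12 and 9.90 in the MYB knockdown mice, against 9.58, 9.64 and 9.76 in the wild type mice, a rise by 0.35 ± 0.09 (SE; adjusted p = 0.0465). Ruvbl2, an ATPase of the assembly machinery, differed by 0.30 ± 0.09 (SE; adjusted p = 0.0739) and Nufip1, a platform of box C/D assembly, by 0.26 ± 0.08 (SE; adjusted p = 0.0848); neither group pair overlapped. Of 15 genes of intron debranching and trimming 2 rose and 0 fell, with a median of 0.22, against the same shares of all genes. Exosc5 and Exosc1, subunits of the RNA exosome, rose by 0.56 ± 0.13 (SE; adjusted p = 0.0293) and 0.29 ± 0.07 (SE; adjusted p = 0.0331). Exosc9 differed by 0.33 ± 0.09 (SE; adjusted p = 0.0551) and Toe1, a nuclear deadenylase, by 0.29 ± 0.09 (SE; adjusted p = 0.0916). Dbr1, the debranching enzyme, had 7.62, 7.42 and 7.05 in MYB knockdown mice 1 to 3 and 7.39, 7.29 and 7.29 in wild type mice 1 to 3 and differed by 0.04 ± 0.15 (SE; adjusted p = 0.909); it is named outside the rule as the enzyme that opens the intron lariat. The calls among these 37 protein genes numbered 8 over all arrays, where 6.12% of all genes were called higher. Without knockdown mouse 3 they numbered 24, where that share was 17.1%. Other settings also ended calls: Fbl was lost when its probe sets were averaged (adjusted p = 0.0907), Snu13, Nolc1 and Exosc1 without the trend of eBayes (adjusted p = 0.106, 0.0595 and 0.0729), and Naf1 and Nolc1 without the filter on dim genes (adjusted p = 0.053 and 0.0589). Without knockdown mouse 1 the calls numbered 5, and 1, which was Rrp9, when knockdown mouse 2 or any single mouse of the wild type was left out.

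**Figure D5:**
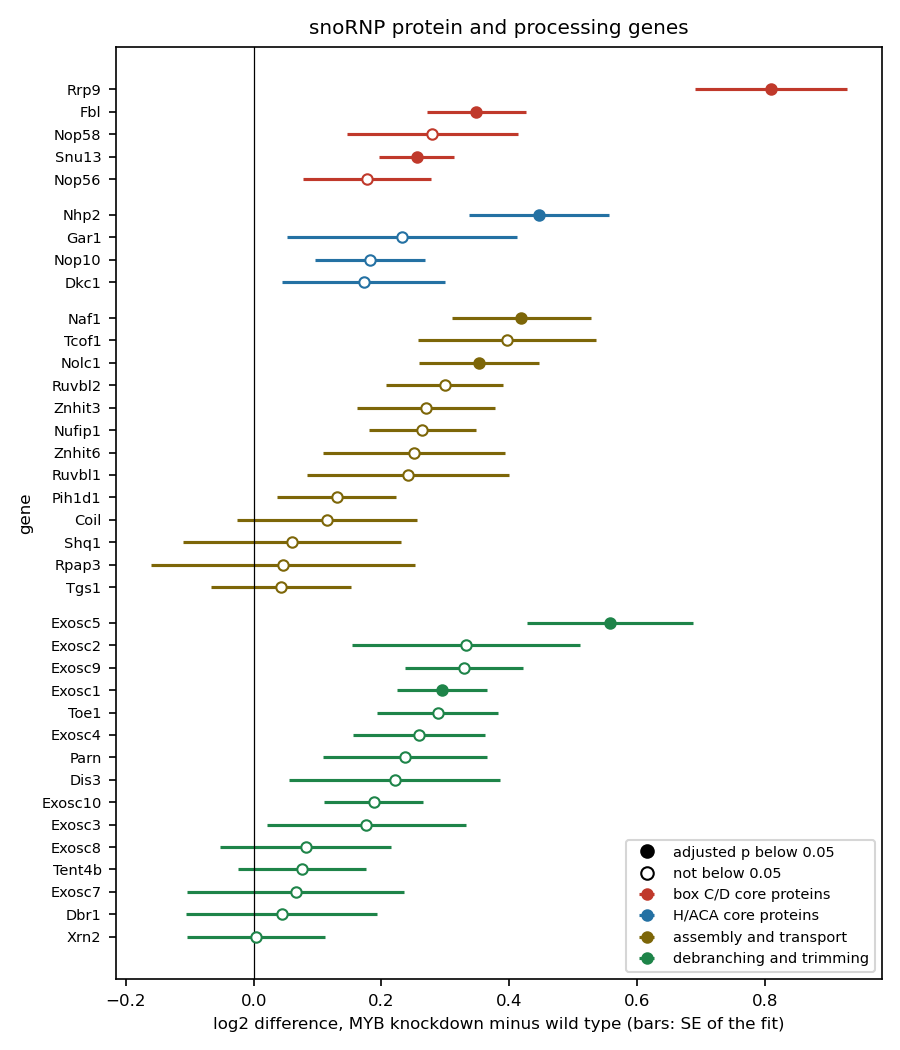
Difference on the log2 scale, MYB knockdown minus wild type, with the SE of the fit over 3 mice per group, for the genes of 4 lists: box C/D core proteins (red), H/ACA core proteins (blue), assembly and transport (olive), and debranching and trimming (green). Filled points passed the adjusted p of 0.05. All 37 lie at or above 0, and Rrp9 is the highest.

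Other short RNAs were read from the same arrays. Of 11 other small structured RNAs above the filter 1 rose and 0 fell, where 6.12% of all genes were called higher and 5.48% lower, and their median difference was 0.25. Rny3, a Y RNA bound by the Ro protein, had 10.23, 10.25 and 10.70 in the MYB knockdown mice, against 9.27, 10.06 and 9.49 in the wild type mice, a rise by 0.79 ± 0.21 (SE; adjusted p = 0.0448). Its groups did not overlap, and it was no longer called when knockdown mouse 1, knockdown mouse 2, wild type mouse 1 or wild type mouse 3 was left out (adjusted p between 0.052 and 0.168) and with quantile normalization (adjusted p = 0.06) or without the trend of eBayes (adjusted p = 0.0524). Terc, the telomerase RNA, which carries an H/ACA domain, had 10.25, 10.40 and 10.69 in the MYB knockdown mice, against 10.07, 10.19 and 9.82 in the wild type mice and differed by 0.42 ± 0.13 (SE; adjusted p = 0.085). Rnu3a, a U3 gene and so a box C/D snoRNA by nature although its symbol kept it out of the members, had 7.52, 8.19 and 7.999 in the MYB knockdown mice, against 7.51, 7.72 and 6.96 in the wild type mice and differed by 0.50 ± 0.23 (SE; adjusted p = 0.213); it was named after its values were seen. Scarna8, a guide RNA of Cajal bodies, had 7.02, 6.98 and 5.99 in the MYB knockdown mice, against 7.19, 7.18 and 7.36 in the wild type mice, with no overlap and a difference of -0.58 ± 0.25 (SE; adjusted p = 0.196), and Rnu12, of the minor spliceosome, differed by 0.25 ± 0.11 (SE; adjusted p = 0.207). The median step of this list in knockdown mouse 3 was 0.24 above knockdown mice 1 and 2, against -0.52 for the snoRNAs. Of 103 microRNA genes 0 rose and 1, Mir668, fell, by 0.38 (adjusted p = 0.029), where 5.48% of all genes were called lower. Its call was lost when knockdown mouse 2 or any single mouse of the wild type was left out (adjusted p between 0.101 and 0.129). The 103 differences had a median of -0.08, and the median step in knockdown mouse 3 was 0.19. Whether these lists differ from the snoRNAs was not tested.

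Of the 6 non-coding host genes with a probe set of their own 0 were called over all arrays by limma, and 0 had an unadjusted p under 0.05. Gas5 had 11.01, 11.03 and 10.23 in MYB knockdown mice 1 to 3 and 10.68, 10.75 and 10.83 in wild type mice 1 to 3 and Snhg5 had 9.75, 9.93 and 9.25 in MYB knockdown mice 1 to 3 and 9.40, 9.35 and 9.52 in wild type mice 1 to 3. In both, knockdown mice 1 and 2 were above every wild type mouse and knockdown mouse 3 below them. The differences were 0.01 ± 0.19 (SE; adjusted p = 0.988) for Gas5 and 0.22 ± 0.16 (SE; adjusted p = 0.475) for Snhg5, and without knockdown mouse 3 both rose, by 0.27 (adjusted p = 0.00868) and 0.42 (adjusted p = 0.00403). Snhg11 differed by -0.20 ± 0.09 (SE; adjusted p = 0.227), Snhg15 by 0.17 ± 0.13 (SE; adjusted p = 0.486) and Snhg17 by -0.18 ± 0.16 (SE; adjusted p = 0.534). Gas5 was named after its values were seen.

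At the threshold on the mean of 5.11, the members just inside were Snora2b, with a mean of 5.13, Snord73a, with 5.37, and Snord118, with 5.61. Both genes left out lay below it, Snord58b with 4.998 and Snord38a with 4.29. Snord58b had 5.74, 5.25 and 4.01 in MYB knockdown mice 1 to 3 and 5.28, 4.68 and 5.03 in wild type mice 1 to 3, and Snord38a had 4.74, 4.51 and 3.69 in MYB knockdown mice 1 to 3 and 3.96, 4.35 and 4.46 in wild type mice 1 to 3, with knockdown mouse 3 the lowest in both. A further 41 probe sets carry a snoRNA symbol beside another symbol and name no single gene; of these, 24 stand for Snord116 copies, the brain snoRNAs of the Prader-Willi region, whose means lay between 3.68 and 4.10, under the threshold.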

How the data were processed

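Total RNA from sorted cells was labelled for whole-transcript arrays, per the labels' protocols, and 6 Affymetrix arrays were read. The authors deposited log2 values, 1 for each probe set on each array. The submitters' processing notes name Affymetrix Expression Console and limma. How background, normalization and summarisation were done is not given in the sources used here. That the scale is log2 follows from the range of the values (1.83 to 13.26). Arrays have no read depth, so their number limits the precision. The labels name separate mice and give no batch.

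The platform annotation gave 1 gene symbol for 21789 of 35556 probe sets and several for 1621, and 12146 were not in it. The 51 snoRNA genes were matched by gene number to RefSeq on GRCm38.p6 for names, lengths and enclosing genes, and 0 symbols changed. Genes whose mean over all arrays was above the 30th percentile (13956 of 19938) went into 1 limma fit (version 3.58.1, R 4.3.3), using lmFit, then eBayes with its trend option and no covariates. P-values were adjusted by Benjamini-Hochberg across that whole set. The procedure was tested on simulated data. Every adjusted p is from this fit or a named alternative, n is 3 mice per group, and differences are MYB knockdown minus wild type.

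Members and lists were chosen with earlier results of these data known. The rule named Myb, called members, up to 6 others per class by size of difference, members of known role, members near the threshold, all core proteins, and up to 4 genes of each other list by smallest p. Members named for their values without knockdown mouse 3, their shared hosts or their step in that mouse were named after these were seen, and so were the tract and motif searched in promoters. Sequences of the snoRNAs themselves were not analysed here. Alternatives tried were a fit blocked on mouse number, fits lacking 1 array at a time, other scalings (quantile normalization, median centring), other filters (none, or the 50th percentile), averaging probe sets per gene, eBayes in its robust form or with no trend, weighted arrays, and an adjusted p of 0.1.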

Additional observations from a re-analysis of the deposited data

How the results depend on the processing

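Over all arrays 2 snoRNAs were called higher and 0 lower, and 0 were lower under every alternative run. The number higher was 3 with the replicate block (Snord49b and Snord53 gained, Snord57 lost at an adjusted p of 0.0836), 3 after median centring, 3 at an adjusted p of 0.1, 1 without the trend of eBayes, 0 without the filter on dim genes, 26 with array weights and 0 to 20 with 1 array left out, where 20 came without knockdown mouse 3. The 8 protein and processing genes called higher became 2 with the replicate block (which also ended the calls of Wdr43, at an adjusted p of 0.0577, and Mir668, at 0.0631), 5 without the trend, 25 with array weights and 1 to 24 with 1 array left out. The medians lay between -0.01 and 0.35 for the box C/D class and between -0.03 and 0.30 for the H/ACA class with 1 array left out. The pooled SD of the array medians was 0.39 and 0.26. It is a spread of single arrays that includes knockdown mouse 3, and not an error of these differences. The sign turned for 4 named genes that were not called. With 1 array left out the difference ran from -0.22 to 0.37 for Snord35b, from -0.22 to 0.42 for Snord73a and from -0.71 to 0.10 for Snord14e, with the positive end of each without knockdown mouse 3. Single values below 0 were -0.05, -0.0078 and -0.14 for Snord35b and -0.10 and -0.19 for Snord73a. Snhg17 was at 0.14 with the mean of its probe sets and at 0.044 with array weights, against -0.18. The cause was not tested. Deviations of same-numbered mice correlated at 0.29, -0.19 and -0.08 over genes, so the block rests on a shared number and not on a pairing. Dim probe sets, such as those of Snora2b and Snord73a, can understate a difference.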

Other observations

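The 17 probe sets that carry a snoRNA symbol beside a host or another symbol, leaving aside the Snord116 copies, were outside the comparison. Of the 17, 12 had a mean above the threshold and 11 were higher in the knockdown, with differences between -0.20 and 0.75 and a median of 0.08. Of the 5 snoRNA genes with 2 probe sets of 1 symbol, Snora30 and Snord118 have the same values in both. For Snora21 the dimmer probe set differed by 0.19 and the brighter by 0.25, and for Snora3 the values were 0.12 and 0.11. The groups overlapped in the dimmer probe set of Snora21 and did not in the brighter. All of the 24 probe sets of Snord116 copies were lower in the knockdown by sign, with differences between -0.35 and -0.11, and their means were under the threshold.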
